A study of Mus musculus with 60 samples.

Results

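The cells described here were the DiD- PyMT-Bo1 breast cancer cells from mouse bone, divided into cycling and non-cycling cells by 5 proliferation genes. The cells were chosen by their measured counts of these genes, and a cell was taken as cycling when at least 3 of Mki67, Top2a, Cdk1, Birc5 and Ccnb2 had 10 or more counts, and as non-cycling when 2 or fewer did. Of the 28 DiD- cells, 25 were cycling (89.3%) and 3 were non-cycling, which are cells 71, 85 and 89 by the numbers in their titles. The study sequenced 60 single cells, and the other 32 were DiD+ cells. Of these, 19 were cycling and 13 non-cycling by the same rule (59.4% cycling). The shares of DiD- and DiD+ cells were not compared by a test.

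PyMT-Bo1 is a line of mouse mammary tumor origin. In both groups the cells carried Luc2 luciferase, an H2B-mApple nuclear label and the surface marker Thy1.1, and were stained with the membrane dye DiD before intracardiac injection into wild-type C57BL6 mice. Dye is diluted at each division, so DiD- cells had lost it and DiD+ cells had kept it. Cells were taken from femur and tibia 11 days after injection, the bones of 5 mice were pooled, and single cells were sorted by Thy1.1 and DiD, with CD45+ blood cells gated out. No mouse was named for any cell. Each class of cells was therefore 1 sample, no test between classes was possible, and each difference below is a description of these 28 cells, of which the non-cycling class holds 3.

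A dividing cell first loads the MCM helicase onto its origins of replication in G1, which is called licensing, then copies its DNA in S phase, and in G2 and mitosis builds the kinetochores and the spindle that separate the chromosomes. E2F factors drive the genes of the first steps. The MuvB complex, with B-Myb and FoxM1, drives the genes of the later steps through CHR and CCAAT elements in their promoters, and the DREAM form of the same complex holds them down in resting cells. Tumor cells that settle in bone may stop dividing and persist there as dormant cells, so the few DiD- cells without a cycling profile are of interest beside the many with one.

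The genes of the rule are given first, as what chose the classes. All 5 had 10 or more counts in 16 cells, 4 did in 5 cells and 3 did in 4 cells, and no cell had 0. Just inside the threshold, cell 45 had 298 counts of Top2a, 139 of Cdk1 and 630 of Ccnb2, and cell 66 had 229 of Top2a, 2054 of Cdk1 and 330 of Birc5. Cell 74 had 567 counts of Cdk1, 31 of Birc5 and 157 of Ccnb2 and only 2 of Top2a, and cell 92 had 1610 of Cdk1, 614 of Birc5 and 910 of Ccnb2. Just outside it, cell 85 had 254 counts of Birc5 and 387 of Ccnb2, cell 89 had 115 of Top2a and 368 of Cdk1 with 1 count each of Birc5 and Ccnb2, and cell 71 had 240 counts of Cdk1 alone. Each non-cycling cell thus held RNA of at least 1 proliferation gene. Mki67, the gene of the Ki-67 antigen, had no count in any of the 3 non-cycling cells and was counted in 19 of the 25 cycling cells. No count of these genes in a DiD- cell lay between 2 and 31, so the minimum could be moved from 10 to 5 or 20 without changing a cell's class.

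**Figure D1:**
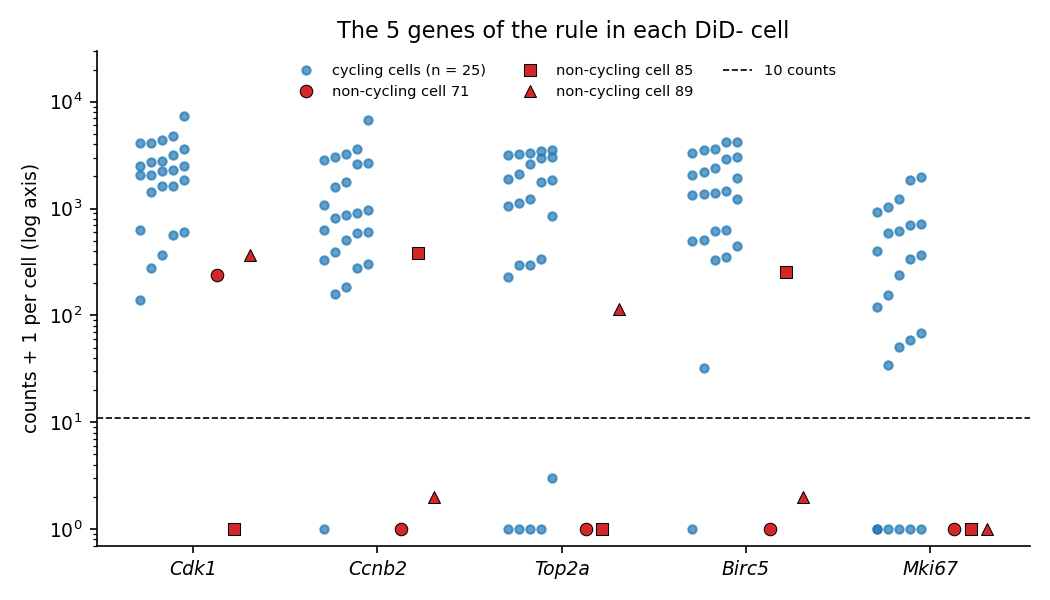
Counts plus 1 per cell (log axis) of the 5 genes that define the classes (x axis), with a blue point per cycling DiD- cell, a red symbol for each of cells 71, 85 and 89, and a dashed line at 10 counts. The 3 non-cycling cells lack Mki67 and each holds 1 or 2 of the other genes, and no point of any gene lies between 2 and 31 counts.

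Promoters of 3 rule genes are shown with the elements named above. The stretches below are 150 bases upstream of the gene start in RefSeq (GRCm38.p6), set back by 26 bases for Cdk1 and by 31 for Ube2c so that none lies within the annotated gene, and printed 5′ to 3′ on the strand of the gene, with matches on either strand in capitals; neighboring matches may share a base. The CHR letters searched were TTTGAA and also those with a C in place of the last of the leading T letters, the CCAAT letters were those of its name, and the E2F letters were TTTGGCGC, TTTCCCGC, TTTGCCGC and TTTCGCGC. They are shown because each has both CHR and CCAAT matches. The stretch of Cdk1, the mitotic kinase, is chr10:69352939-69353088 (- strand), that of Top2a, a topoisomerase, is chr11:99024190-99024339 (- strand), and that of Mki67 is chr7:135716380-135716529 (- strand).
Cdk1: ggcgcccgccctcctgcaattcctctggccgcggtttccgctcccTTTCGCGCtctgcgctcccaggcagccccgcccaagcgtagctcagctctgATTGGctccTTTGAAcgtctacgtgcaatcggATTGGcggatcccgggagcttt
Top2a: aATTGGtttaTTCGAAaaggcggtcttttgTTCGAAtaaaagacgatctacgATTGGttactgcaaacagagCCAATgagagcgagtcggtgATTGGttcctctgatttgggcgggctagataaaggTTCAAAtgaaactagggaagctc
Mki67: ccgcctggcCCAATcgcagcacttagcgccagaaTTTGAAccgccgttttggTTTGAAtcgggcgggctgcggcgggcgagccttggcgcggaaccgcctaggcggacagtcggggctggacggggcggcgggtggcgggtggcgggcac

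In the Cdk1 stretch the E2F match came first, and a CHR match stood between a pair of CCAAT matches. Top2a held 3 CHR and 4 CCAAT matches, and Mki67 held 1 CCAAT match upstream of 2 CHR matches. A CHR match was found within 250 bases of the start in 4 of the 5 rule genes and in 19.6% of all promoters, and a CCAAT match in 4 of 5 and in 37.5%. A match is a description of letters and not a site of binding.

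The values behind the comparison are estimated read counts per gene, without molecular identifiers. Mouse-gene counts ran from 2624416 to 6199117 per cycling cell (median 4536535) and were 4343796, 4016118 and 4553441 in cells 71, 85 and 89. The counts of each class were added up, to 106576977 and 12913355, and divided to CPM. Ratios are log2 of cycling over non-cycling CPM with 1 CPM added to each, which understates the ratio of low genes, and the limit set by 3 counts was 0.0281 CPM in the cycling and 0.232 CPM in the non-cycling class. These limits and all intervals cover counting error only. Cycling cells had 6701 to 9919 genes detected (median 8534), and the non-cycling cells had 8151, 6818 and 8108. The mitochondrial share of counts was 0.368 to 2.09% (median 1.05%) against 1.75, 1.18 and 1.78%. Counts on mouse genes per spike-in count, which follow the RNA in the well, were 66.99 for the cycling class (38.5 to 178 by cell) and 52.9 for the non-cycling class (66.2, 40.3 and 57.8), so the non-cycling cells lay within the cycling range. Luc2 RNA had 10 or more counts in all 28 cells and mApple in 24, and Ptprc, the gene of CD45, had 19 counts over the cycling and 0 over the non-cycling cells. Fewer cells with a transcript and less of it per cell cannot be told apart in a class sum, so values by cell are given beside many of the ratios.

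Of 8791 genes with at least 10 CPM in either class, 1942 (22.1%) were 2-fold or more higher in cycling cells and 1283 (14.6%) 2-fold or more lower. The median log2 ratio over these genes was 0.07, with quartiles of -0.60 and 0.84. Only 17 genes (0.193%) had all 25 cycling cells above all 3 non-cycling cells, and 19 (0.216%) had all 25 below. Many ratios rest on few non-cycling cells with a count: of the 1942 higher genes 580 had no count in any non-cycling cell and 614 were counted in 1 of them. Over all genes with at least 1 CPM the median was 0.21, and the medians of lists below are to be read beside it. Scaling by the spike-ins in place of total counts moved the median of the genes at 10 CPM from 0.07 to 0.40 and the split to 2550 higher and 764 lower.

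Replication genes were higher in the cycling cells throughout the list. All 23 licensing and origin firing genes had a ratio above 0, with a median of 2.70, and 22 of 23 were 2-fold or more higher (95.7%, against 22.1% of all genes). All 41 genes of DNA synthesis and the replication fork did too, with a median of 2.10. Mcm3, a subunit of the MCM helicase, had no count in cells 71 and 85 and 0.659 CPM in cell 89, and 37.4 to 851 CPM (median 202) in the cycling cells. The groups did not overlap, and the ratio of CPM was 1440-fold with a counting interval of 493 to 6983, from 3 counts in the non-cycling class. Tk1, thymidine kinase of the salvage pathway, was at 0, 0 and 23.1 CPM in cells 71, 85 and 89 and at 25.5 to 652 CPM (median 245) in the cycling cells, again with no overlap. Its log2 ratio of 5.05 was 8.24 without cell 89 and 4.51 without cell 71.

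Other replication genes were absent from all 3 non-cycling cells but also from some cycling cells. Asf1b, a histone chaperone of replicating cells, had counts in 22 of 25 cycling cells (median 85.2 CPM) and was at least 355-fold higher as a class sum. Orc5, a subunit of the origin recognition complex, had counts in 20 (median 47.9 CPM) and was at least 217-fold higher. Mcm10, which acts as origins fire, had counts in 10 of 25 cycling cells, with a highest value of 147 CPM, and Gins3, part of the active helicase, in 9. For Cdt1, the licensing factor that loads MCM, 21 of 25 cycling cells lay above all non-cycling cells, with 2 counts in the non-cycling class and a ratio of 477 (132 to 3939). Part of this pattern depends on where the line between the classes is drawn: with cycling set at 4 of the 5 genes, which moves cells 45, 66, 74 and 92 across, the median of the replication genes was 1.07 in place of 2.41, and the ratio of Orc5 was 0.36 and of Mcm3 1.51.

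The promoters of Mcm3 and Mcm10 are printed as examples of licensing genes, at chr1:20820313-20820462 (- strand) and chr2:5012792-5012941 (- strand), with the same elements in capitals.
Mcm3: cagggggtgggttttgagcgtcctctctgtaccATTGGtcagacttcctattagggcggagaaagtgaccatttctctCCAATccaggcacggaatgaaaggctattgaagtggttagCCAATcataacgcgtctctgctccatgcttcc
Mcm10: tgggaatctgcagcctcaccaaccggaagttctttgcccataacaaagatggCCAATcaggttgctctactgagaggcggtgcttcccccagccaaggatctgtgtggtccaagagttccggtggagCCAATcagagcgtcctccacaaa

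Both held CCAAT matches in these stretches, and neither held a CHR or E2F match there. Among the replication genes with a promoter in the table, an E2F match stood within 250 bases of the start in 11 of 50 (22%) and a CCAAT match in 32 of 50 (64%), beside 4.47% and 41.2% of the promoters of all genes at 10 CPM or more. For licensing genes alone the E2F share was 7 of 18 (38.9%).

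Genes of mitosis stood further apart than genes of replication. Of 101 genes in 3 lists, 98 had a ratio above 0, 96 were 2-fold or more higher (95.05%, against 22.1% of all genes), and the median was 5.15 (3.52 at 4 rule genes). By list, 30 of 32 mitotic kinases, cyclins and subunits or partners of the anaphase-promoting complex were higher (median 4.90), as were 31 of 31 centromere and kinetochore genes (4.91) and 37 of 38 spindle and cytokinesis genes (5.86). In 54 of the 101 genes the non-cycling class had no count at all, and with those genes set at the 3-count limit and no pseudocount the median was 7.07. These lists are close in function to the genes of the rule. A difference of this direction, and its larger size than for replication genes, therefore follow in part from the choice of cells.

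Among the mitotic regulators, Aurkb, the kinase of the chromosomal passenger complex, had no count in the non-cycling cells, had counts in 20 of 25 cycling cells (median 294 CPM, highest 711), and was at least 1088-fold higher. Plk1, polo-like kinase, had counts in 18 cycling cells (median 77.6 CPM, highest 536) and was at least 724-fold higher. Ube2c, which gives the anaphase-promoting complex its ubiquitin, had counts in 22 cycling cells (median 73.8 CPM, highest 1211) and was at least 995-fold higher. Mad2l1, the spindle checkpoint protein Mad2, had counts in all 25 cycling cells (35.9 to 444 CPM, median 146) and stood at 0, 28.6 and 0 CPM in cells 71, 85 and 89. For Mad2l1 the classes did not overlap, and its log2 ratio of 4.06 was 7.37 without cell 85.

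Kinetochore genes supplied 3 of the 17 genes in which every cycling cell lay above every non-cycling cell. Spc24, an outer kinetochore subunit, was at 12.5 to 240 CPM (median 103) in the cycling cells and had no count in the others. Cenph, of the inner kinetochore, was at 3.98 to 158 CPM (median 40.99), also against no count. Cenpw, which binds centromeric DNA, was at 10.5 to 74.99 CPM (median 29.6) against 0, 7.97 and 0 CPM. The larger checkpoint and motor genes were patchier within the cycling class: Bub1 had counts in 19 of 25 cells, Cenpe in 20, Nuf2 in 18 and Ndc80 in 17, with none in a non-cycling cell.

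Among spindle and cytokinesis genes, Kif20a, a motor of the late mitotic midzone, had counts in 21 cycling cells (median 351 CPM, highest 1255) and was at least 1596-fold higher. Prc1, which bundles midzone microtubules, had 1 count in the non-cycling class (cell 71) and a median of 286 CPM in the cycling cells, a ratio of 6404 with a counting interval of 1149 to 252927. Cdca8, the passenger protein borealin, had counts in 21 cycling cells and was at least 876-fold higher, and Tacc3, a spindle protein, in 22 and at least 697-fold higher.

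The 3 mitosis genes with a ratio below 0 were Pttg1 (securin), Wee1 (the kinase that restrains Cdk1) and Fam83d, named because they are the exceptions. Pttg1 was at 111, 13.7 and 78.2 CPM in cells 71, 85 and 89 and at 3.997 to 107 CPM in the cycling cells, a log2 ratio of -0.53. Wee1 had a ratio of -0.79 and Fam83d of -0.89, and Fam83d rested on 257 CPM in cell 89, without which its ratio was 1.15. At 4 rule genes, Wee1 had a ratio of 0.43 and Fam83d of 0.48.

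Ube2c is printed as a mitotic gene outside the rule, at chr2:164769748-164769897 (+ strand), and Btg2, the gene of lower level in cycling cells that is described below, at chr1:134079156-134079305 (- strand) beside it.
Ube2c: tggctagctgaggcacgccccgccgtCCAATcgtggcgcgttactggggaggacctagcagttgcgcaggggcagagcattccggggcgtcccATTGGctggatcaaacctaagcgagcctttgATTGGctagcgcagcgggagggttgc
Btg2: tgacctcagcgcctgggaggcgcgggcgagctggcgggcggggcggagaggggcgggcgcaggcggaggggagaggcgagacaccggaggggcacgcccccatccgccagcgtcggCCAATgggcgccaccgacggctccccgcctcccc

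The Ube2c stretch held CCAAT matches but no CHR match, and the Btg2 stretch a single CCAAT match near its end. A CHR match was found in 29 of 83 mitosis genes with a promoter in the table (34.9%), against 14.5% of all genes at 10 CPM or more, and a CCAAT match in 58 of 83 (69.9%) against 41.2%. For the spindle and cytokinesis list the CHR share was 15 of 33 (45.5%). CCAAT matches were found in 6 of 17 immediate early (35.3%) and 8 of 24 lysosome genes (33.3%) with a promoter in the table. CHR matches were found in 3 of 17 (17.6%) and 3 of 24 (12.5%) of them.

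The 25 cycling cells were far from uniform. The summed CPM of the replication genes ran from 3060 to 20123 in them (median 7629), and was 1859, 1884 and 3746 in cells 71, 85 and 89, so that 24 of 25 cycling cells lay above all 3. The summed CPM of the mitosis genes ran from 1268 to 31840 (median 10264) against 1230, 937 and 1944, with 23 of 25 above. Log2 of the mitosis over the replication sum ran from -2.01 in cell 74 to 3.17 in cell 27, a range that compares cells with each other and not the gene sets, since CPM is not scaled by transcript length. The replication sum was about the same at 3, 4 and 5 rule genes, with medians of 8658, 6932 and 8032 CPM over 4, 5 and 16 cells, while the mitosis sum had medians of 2557, 4546 and 18384 CPM. The mitosis lists are close in function to the rule genes, so this contrast follows in part from how the cells were ranked. Cell 45, 1 of the 4 cells with 3 rule genes, lay nearest the non-cycling cells, with sums of 3969 and 1268 CPM.

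**Figure D2:**
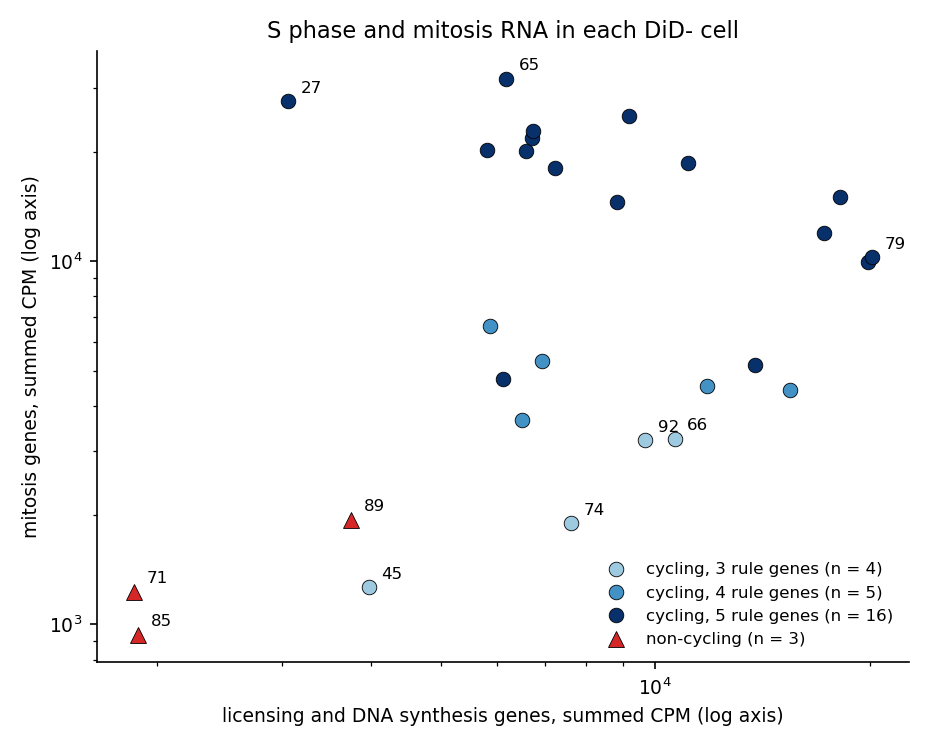
Summed CPM of 64 replication genes (x axis) and of 101 mitosis genes (y axis) in each DiD- cell, both on log axes, with circles for cycling cells shaded by the number of rule genes, triangles for non-cycling cells, and some cells marked by number. Cells 71, 85 and 89 lie at the lower left beside cell 45, and the cells with all 5 rule genes reach mitosis sums of 31840.

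Chromosome genes were higher too. Of 31 genes of condensin, cohesin, chromatin and the nuclear lamina, 30 had a ratio above 0, with a median of 1.76 (0.94 at 4 rule genes). At least 2-fold higher were 25 of 31 (80.6%, against 22.1% of all genes). Their summed CPM was 3976, 11388 and 4098 in cells 71, 85 and 89 and 6632 to 16249 (median 11838) in the cycling cells. The classes overlapped, and 15 of 25 cycling cells lay above all 3. Ncaph and Ncapg, subunits of the condensin I complex that compacts mitotic chromosomes, had no count in the non-cycling cells and counts in 20 cycling cells each, and were at least 663-fold and 558-fold higher. Esco2, which acetylates cohesin in S phase, had counts in 17 cycling cells and none in the others. H2afz, the histone variant H2A.Z, was counted in all cells, at 291, 961 and 587 CPM in cells 71, 85 and 89 and 1124 to 4306 CPM (median 2060) in the cycling cells, with no overlap. Lmnb1, lamin B1 of the nuclear envelope, overlapped, at 0, 48.8 and 0 CPM against 0.313 to 213 CPM (median 64.5), and 15 of 25 cycling cells lay above all 3. Its log2 ratio of 2.18 was 6.19 without cell 85 and 0.83 at 4 rule genes.

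Regulators of the G1 to S step were mixed, and 14 of 18 measured had a ratio above 0 (median 0.95, and 0.50 at 4 rule genes). Cdk2, the S phase kinase, had no count in the non-cycling cells and counts in 22 cycling cells (median 65.9 CPM), at least 254-fold higher, and Ccne1, its cyclin E1 partner, had counts in 9. E2f7 and E2f8, repressor members of the E2F family, had log2 ratios of 4.87 and 3.73, with counts of E2f8 in cells 71 and 89. Ccnd3, cyclin D3, was lower in the cycling class, at 0 to 294 CPM (median 132) against 486, 160 and 389 CPM, a log2 ratio of -1.26. The CDK inhibitors and pocket proteins with at least 1 CPM had a ratio above 0 in 8 of 8 cases, from 0.003 upward, with a median of 1.25. Of 7 at 10 CPM or more, 4 were 2-fold higher (57.1%, against 22.1% of all genes). The classes overlapped, with summed CPM of 538, 245 and 454 in cells 71, 85 and 89 and 124 to 1534 (median 566) in the cycling cells. In DiD+ cells 5 of 8 had a ratio above 0. Cdkn2c (p18) had counts in 20 cycling cells and in none of the others, at least 171-fold higher, and Cdkn2d (p19) was at 0, 33.4 and 19.98 CPM against 0 to 307 CPM (median 41.3).

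Of the Myc network, 4 of 9 genes had a ratio above 0, with a median of -0.57. Myc itself, a driver of growth and biosynthesis, was at 28.8, 47.3 and 16.7 CPM in cells 71, 85 and 89 and at 0 to 220 CPM (median 46.7) in the cycling cells, so the classes overlapped in both directions. Mxd3, a Max partner found in S phase cells, had counts in 18 cycling and no non-cycling cells, at least 370-fold higher. Mxi1, a Max partner that opposes Myc, was at 161, 184 and 74.9 CPM in the non-cycling cells and lay below all 3 of them in 20 of 25 cycling cells (median 42.5 CPM).

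Biosynthetic genes were higher by smaller amounts. Of 33 ribosome biogenesis genes, 31 had a ratio above 0 (median 0.90), and their summed CPM was above all non-cycling cells in 21 of 25 cycling cells. Of 23 genes of nucleotide, serine and one-carbon synthesis, 20 did (median 1.45), with the sum above in 24 of 25. At 4 rule genes these medians were 0.64 and 0.38. Shmt1, a serine hydroxymethyltransferase that feeds thymidylate synthesis, had no count in the non-cycling cells and counts in 23 cycling cells (median 108 CPM), at least 560-fold higher. Gart, an enzyme of purine synthesis, was at 0, 0 and 118 CPM against 0 to 454 CPM (median 215), and its log2 ratio of 2.51 was 7.92 without cell 89. Psat1, of serine synthesis, was at 0, 115 and 57.5 CPM against 0.702 to 784 CPM (median 174). Of the cytosolic ribosomal protein genes 41 of 83 were above 0, with a median of -0.01, and of the nuclear subunits of oxidative phosphorylation 44 of 74, with a median of 0.04. Under spike-in scaling these medians were 0.34 and 0.38, near the 0.40 of all genes.

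Most of the 17 genes without overlap belonged to neither the replication nor the mitosis lists, which held 6 of them. Slc25a5, the ADP/ATP carrier of the inner mitochondrial membrane, was at 75.3, 318 and 465 CPM in cells 71, 85 and 89 and at 608 to 1701 CPM (median 1115) in the cycling cells, a log2 ratio of 1.93. Timm50, of the mitochondrial protein import machinery, was at 37.5, 45.1 and 29.2 CPM against 77.97 to 342 CPM (median 205), a ratio of 2.48. Alyref, an mRNA export factor, was at 115, 120 and 145 CPM against 168 to 466 CPM, and Nudc, a dynein-associated protein, at 156, 173 and 115 CPM against 197 to 557 CPM. Prmt7, an arginine methyltransferase, was at 50.6, 0 and 42.6 CPM against 80.2 to 372 CPM. U2af2, a splicing factor, and Ndc1, a nuclear pore protein, were near 0 in the non-cycling cells and had counts in all 25 cycling cells, though down to 3.05 CPM for U2af2 and 0.745 CPM for Ndc1. At 4 rule genes these ratios were smaller, at 0.42 for Slc25a5, 0.66 for Timm50, 0.28 for Prmt7 (from 2.44), 0.63 for U2af2 (from 4.33), 1.62 for Ndc1 (from 6.15), 0.77 for Alyref (from 1.34) and 0.74 for Nudc (from 1.31).

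Genes at a lower level in the cycling cells were fewer, and among them was Btg2, an antiproliferative gene induced by p53. Btg2 was at 348, 332 and 359 CPM in cells 71, 85 and 89 and at 0 to 101 CPM (median 25.04) in the cycling cells. The classes did not overlap, the log2 ratio was -3.27, leaving out any 1 cell gave -3.41 to -3.19, and at 4 rule genes it was -2.18. Tob1, of the same family, was at 142, 48.1 and 172 CPM against 0 to 68.6 CPM (median 18.6), with 19 of 25 cycling cells below all 3, and had a ratio of -2.22. Pnrc1, a nuclear receptor coactivator, did not overlap either, at 494, 194 and 147 CPM against 0.235 to 143 CPM (median 49.6).

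In the list of growth arrest and FOXO-linked genes, to which Btg2 belongs, 8 of 20 genes with at least 1 CPM had a ratio above 0, and the median was -0.30. Of 15 genes at 10 CPM or more 1 was 2-fold higher (6.67%, against 22.1% of all genes) and 5 were 2-fold lower (33.3%, against 14.6%). The summed CPM was 5237, 2281 and 2013 in cells 71, 85 and 89 and 910 to 3073 (median 1701) in the cycling cells, of which 20 lay below all 3 and 0 above. In DiD+ cells the median was -0.76, with 5 of 21 genes above 0. Sesn1, a stress-induced inhibitor of mTORC1 signaling, was at 462, 196 and 4.61 CPM against 0 to 311 CPM, and Txnip, an inhibitor of glucose uptake, at 313, 66.7 and 47.2 CPM against 0 to 210 CPM. Both leaned on cell 71, without which the ratio of Sesn1 was -1.01 in place of -2.21 and that of Txnip -0.67 in place of -1.99. Without cell 71 the median of the list was 0.41, under spike-in scaling it was 0.04, and at 4 rule genes -0.12.

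Other genes without overlap were Cp, Mt1, Nt5e and Rgs16. Cp, ceruloplasmin, a copper-carrying ferroxidase, was at 2652, 2363 and 1051 CPM in cells 71, 85 and 89 and at 0 to 678 CPM (median 246) in the cycling cells, a log2 ratio of -3.05. Mt1, metallothionein 1, which binds zinc and copper, was at 1678, 2265 and 3321 CPM against 116 to 1536 CPM (median 496), a ratio of -2.06. Nt5e, the ectonucleotidase CD73, was at 999, 948 and 571 CPM against 0 to 466 CPM (median 135), a ratio of -2.28. Rgs16, a regulator of G protein signaling, was at 63.1, 35.9 and 45.2 CPM and had counts in 6 of 25 cycling cells. With cycling at 4 rule genes the ratio was -2.33 for Cp, -1.28 for Mt1, -1.38 for Nt5e and -2.24 for Rgs16 (from -3.55). Setdb2, Zgpat, R3hcc1l and Mapre3 did not overlap either, with counts in 8, 8, 10 and 11 cycling cells and 11.5 to 131 CPM in the non-cycling cells.

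Lysosome and autophagy genes were lower together by a small amount. Of 31 genes, 23 had a ratio below 0 and the median was -0.50 (-0.16 under spike-in scaling). Only 4 of the 31 were 2-fold or more lower (12.9%, against 14.6% of all genes). Their summed CPM was 13521, 11426 and 12834 in cells 71, 85 and 89 and 5195 to 9463 (median 7713) in the cycling cells, so that the sums did not overlap. In DiD+ cells the sums did overlap, at 5309 to 19930 in cycling and 9315 to 19698 in non-cycling cells. Ctsb, the lysosomal protease cathepsin B, was at 2393, 2572 and 2842 CPM against 717 to 2188 CPM (median 1286), and its log2 ratio was -0.95. Map1lc3b, the autophagosome protein LC3B, was at 779, 568 and 761 CPM against 133 to 462 CPM (median 245), a ratio of -1.57. Gabarap, of the same protein family, was at 515, 245 and 389 CPM against 68.8 to 431 CPM, with 22 of 25 cycling cells below all 3. The ratio at 4 rule genes was -0.58 for Ctsb, -0.96 for Map1lc3b, and -0.43 for the list median.

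**Figure D3:**
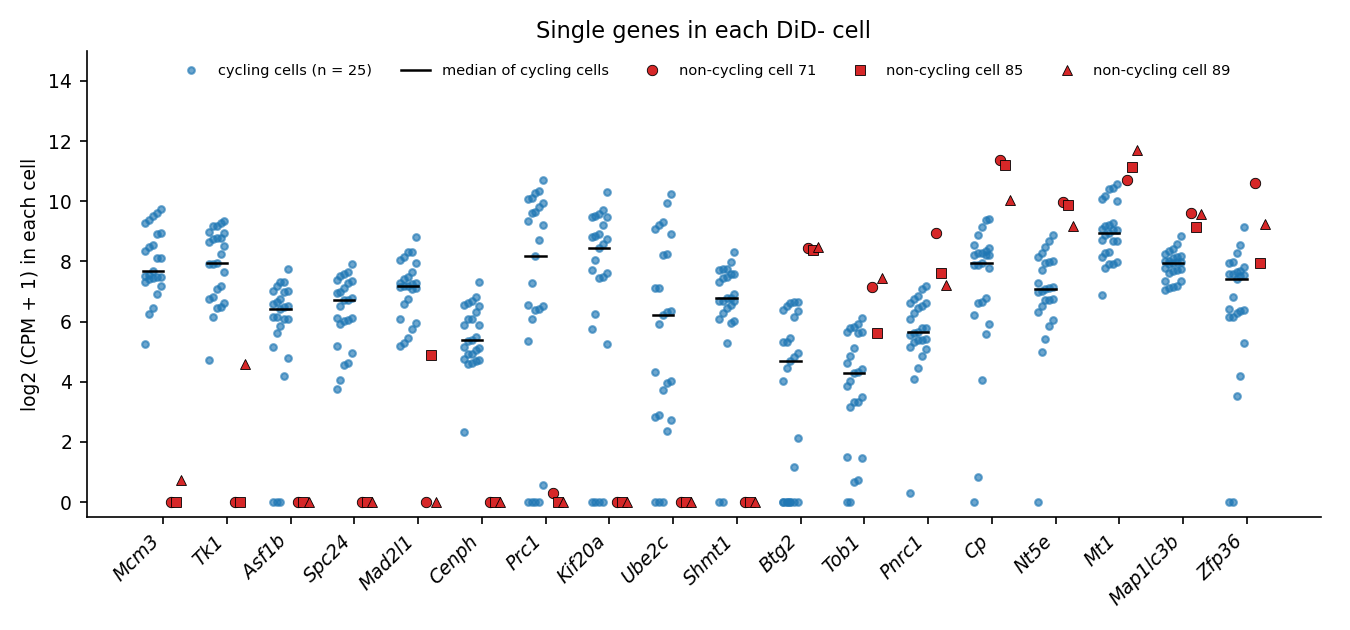
Level of selected genes in each DiD- cell as log2 of CPM plus 1 (y axis), with blue points for the 25 cycling cells, a bar at their median and red symbols for cells 71, 85 and 89. In the columns of Mcm3 and Spc24 all cycling cells lie above the 3 non-cycling cells, and in those of Btg2 and Cp all lie below them.

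Immediate early genes, which respond within minutes to growth signals and also to tissue digestion, were lower in the cycling class but spread widely. Of 20 genes, 18 had a ratio below 0, 10 were 2-fold or more lower (50%, against 14.6% of all genes), and the median was -1.01. Their summed CPM was 29419, 14916 and 17792 in cells 71, 85 and 89 and ran from 603 to 24445 (median 10039) in the cycling cells, 18 of which lay below all 3. Zfp36, which speeds the decay of cytokine mRNAs, was at 1547, 247 and 607 CPM against 0 to 566 CPM (median 170), a log2 ratio of -2.36. Nr4a1, an orphan nuclear receptor, was at 2053, 0 and 789 CPM against 0 to 1783 CPM, and Ccn1, a matricellular protein, at 11602, 2182 and 3488 CPM against 0 to 8278 CPM (median 468). Cell 71 was the highest in each, and without it the ratio of Zfp36 was -1.48, of Nr4a1 -1.02 and of Ccn1 -0.91, while that of Atf3 turned from -1.77 to 0.28 and that of Egr2 from -1.93 to 0.43. The list median was -0.59 without cell 71 and -0.34 at 4 rule genes. Fosl1 and Dusp2 were the members with a ratio above 0, at 0.70 and 0.65.

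Of the 13 protein genes of the mitochondrial genome, 12 had a ratio below 0, with a median of -0.55 (-0.20 under spike-in scaling). Only 2 of 12 at 10 CPM or more were 2-fold lower (16.7%, against 14.6% of all genes). The cytochrome oxidase gene mt-Co1 was at 6181, 3676 and 6328 CPM against 1469 to 8292 CPM (median 3635), and mt-Atp8 at 278, 194 and 216 CPM against 34.6 to 275 CPM, with 21 of 25 cycling cells below all 3. The exception was mt-Nd2, at 0.12. Their sum was below all 3 non-cycling cells in 16 cycling cells and above them in 2, so the classes overlapped.

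**Figure D4:**
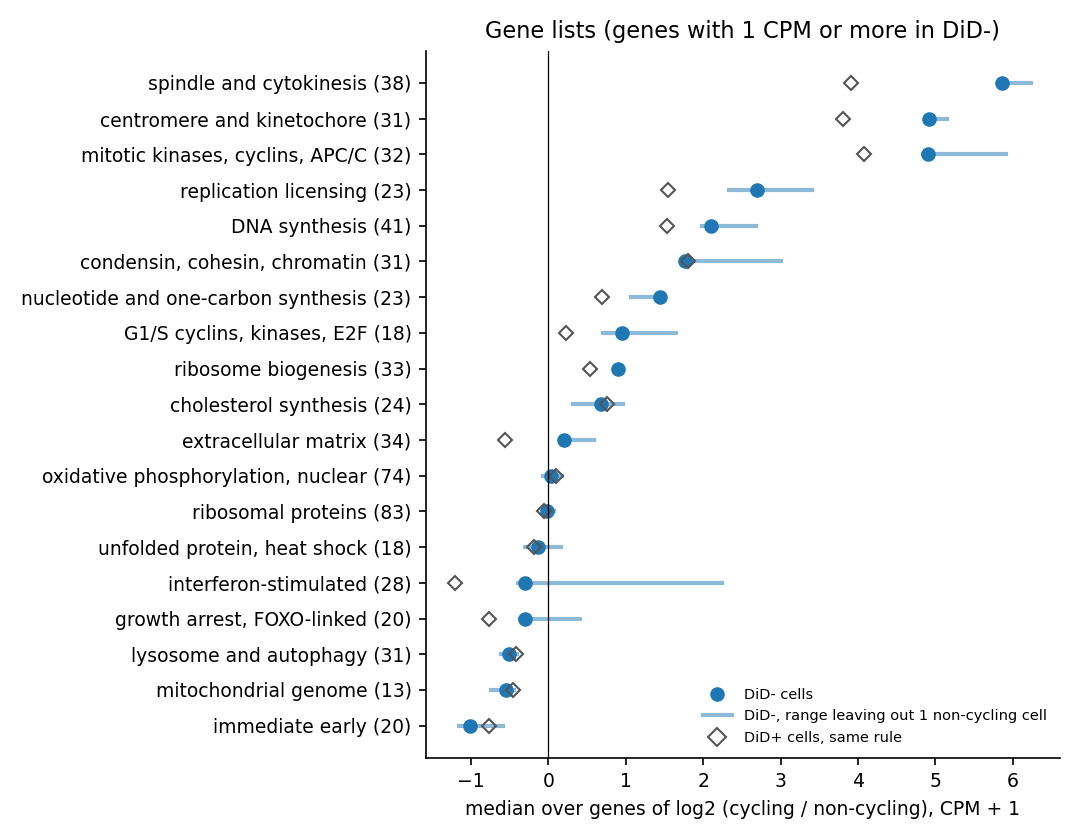
Median log2 ratio (x axis, CPM plus 1) of cycling over non-cycling cells for each gene list, with the number of genes in brackets, a blue point for DiD- cells, a line for the range when 1 of the 3 non-cycling cells is left out, and an open diamond for the DiD+ cells. The mitosis lists stand at 4.90 to 5.86 and the replication lists at 2.10 and 2.70, and immediate early, lysosome and mitochondrial genes lie below 0.

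The same rule applied to the DiD+ cells compares 19 cycling with 13 non-cycling cells and shares no cell with the DiD- split, though both come from the same pooled bones. Of 9036 genes at 10 CPM or more there, 1029 (11.4%) were 2-fold higher in cycling cells and 965 (10.7%) 2-fold lower, and the median ratio was 0.03. The median for replication genes was 1.54 in DiD+ cells and 2.41 in DiD- cells, and that for mitosis genes 3.83 and 5.15. Of 1812 genes 2-fold higher in DiD- cycling cells and measured in both, 1240 (68.4%) had a ratio above 0 in DiD+ cells, against 53.8% of all 8284 genes measured in both. Of 1021 genes 2-fold lower, 703 (68.9%) had a ratio below 0, against 46.2%. The difference between the DiD- and DiD+ splits was not tested.

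Genes seen in the small non-cycling class were followed in the larger DiD+ one. Of the 17 genes with no overlap above, 16 had a ratio above 0 in DiD+ cells (median 1.44), and Ahsa2, at -0.24, was the exception. Of the 19 below, 14 had a ratio below 0 (median -0.62), and Btg2 was at -1.38, Pnrc1 at -1.60, Map1lc3b at -0.85, Cp at -0.78, Nt5e at -0.45 and Mt1 at -0.37. These are ratios of class sums. By cell, the cycling cell was higher in a median of 75.3% of DiD+ pairs of 1 cycling and 1 non-cycling cell for the 17 genes (41.7 to 94.3%). For the 19 genes this share had a median of 39.7% (9.31 to 60.3%), and it was 18.6% for Btg2 and 48.6% for Nt5e. Setdb2, Zgpat and R3hcc1l had DiD+ ratios of 0.40, 0.17 and 0.09. Among replication genes, Tk1 was at 4.57 in DiD+ and 5.05 in DiD- cells, whereas Mcm3 was at 1.44 against 8.09 and Cdt1 at 0.79 against 6.02. Among the mitosis genes, Aurkb was at 6.84 and Plk1 at 5.43 in DiD+ cells. Immediate early genes had a DiD+ median of -0.77 and lysosome genes of -0.42, near the DiD- values of -1.01 and -0.50.

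**Figure D5:**
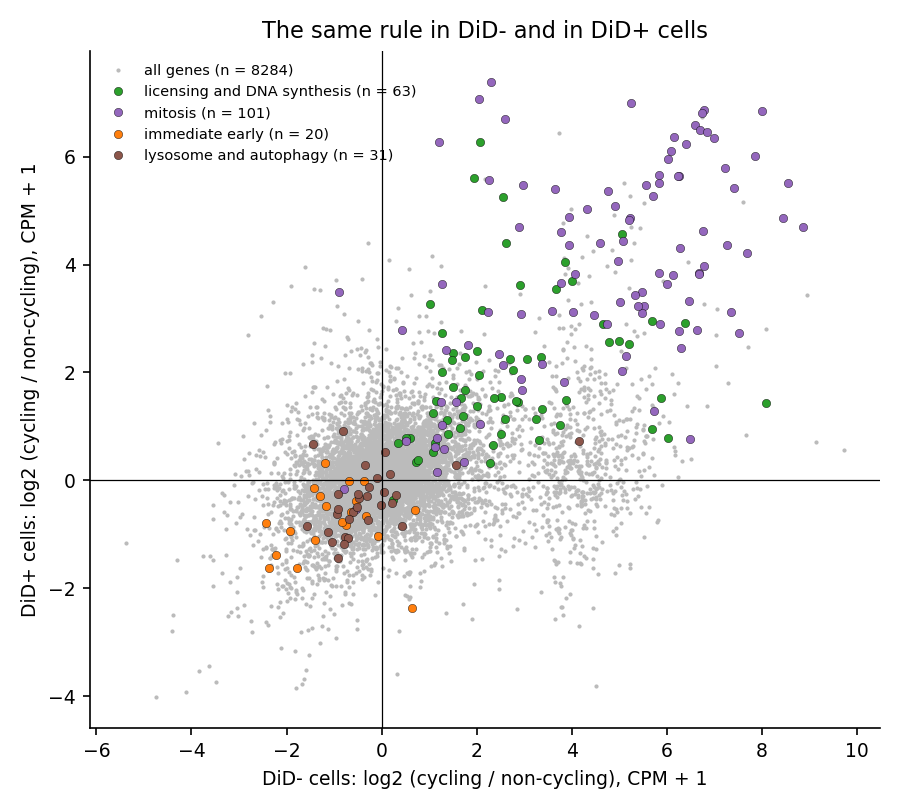
Log2 ratio of cycling over non-cycling cells in DiD- (x axis) and DiD+ (y axis) cells, with a gray point for each of 8284 genes at 10 CPM or more in both splits and colored points for 4 lists. The 101 mitosis and 63 replication genes lie mainly to the upper right, and most of the immediate early and lysosome genes lie to the lower left.

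RNA of erythroid cells or macrophages was high in a few cycling cells and in no non-cycling cell at the same level. Cells 44, 84 and 86 had 10 or more counts of at least 4 erythroid markers, and cell 84 of 13 macrophage markers. Hbb-bs, a beta globin gene, reached 19092 CPM and had no count in cells 71, 85 and 89, and C1qb, a complement gene of macrophages, reached 469 CPM. Without these 3 cells the median was 2.46 for replication and 5.22 for mitosis genes, and 1941 genes were 2-fold higher and 1300 lower, beside 2.41, 5.15, 1942 and 1283 with them. The part of this RNA in other differences was not tested.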

How the data were processed

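Single cells were sequenced with SMARTer full-length cDNA and ERCC spike-ins. According to the methods and labels the authors aligned reads with STAR to GRCm38/mm10 and quantified them with RSEM, and they deposited the estimated counts of each cell as RSEM gives them, not normalized. A normalized signal table that the authors deposited, made with BASiCS, served only as an alternative scaling. Estimated counts were rounded, summed over the cells of a class, divided by the mouse-gene total and compared as log2 of CPM plus 1 (pandas 2.3.3, scipy 1.17.1), with exact Poisson intervals at 95%. Genes needed 10 CPM in a class for counts of genes and 1 CPM for list medians. Cells of 5 pooled mice carry no mouse name, so no test, p-value or standard error was computed. The calculation of the ratios was checked on simulated counts with counting error only. That check held no spread between cells and covered only genes well above the floor. It therefore does not bear on the precision of the ratios given here.

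The cells and gene lists were chosen with earlier results of these data known. Genes were named by rule: the 12 largest ratios each way, the 12 with the most complete separation of cells each way, and the 5 largest of each list. Pttg1, Wee1, Fam83d, Fosl1, Dusp2, mt-Nd2, H2afz, Ctsb, Ccnd3, Alyref, Nudc, Ahsa2 and Vim were added after their values were seen, and 2 genes picked by the rule are not reported here. Promoters are from RefSeq. Alternatives were other rule minimums, scaling (spike-ins, TMM in edgeR 4.0.16, DESeq2 1.42.0 size factors, BASiCS), thinning to 2200000 counts, means or medians over cells, pseudocounts, CPM minimums, and leaving out each cell.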

Additional observations from a re-analysis of the deposited data

How the results depend on the processing

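The non-cycling class holds 3 cells, so its values set the precision of every ratio here, and a gene without a count in it is known only to the limit of 3 counts. No paired analysis was possible because the replicate numbers were given in order of accession and tie no cell of a class to a cell of another. Counting the rule at 5 or 20 counts changed no class.

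With cycling set at 2 rule genes (27 against 1 cell), 3080 genes were 2-fold higher, the median was 4.60 for replication and 5.73 for mitosis genes, and the cycling over non-cycling ratio of mouse counts per spike-in count was 0.983 in place of 1.27. At 4 rule genes (21 against 7 cells), 1271 genes were higher and 786 lower, the medians were 1.07 and 3.52, and the spike-in ratio was 1.21. Without a CPM minimum 3599 genes were higher. Spike-in scaling gave 764 lower genes and 2.68 for replication. A pseudocount of 10 CPM gave 763 lower genes and medians of 1.79 and 2.62, and one of 0.1 CPM a mitosis median of 8.19. Medians over cells gave 2.67 and 5.46, and the BASiCS values 5.20 for mitosis. Without the 3 cells with host RNA the mitosis median was 5.22 and the spike-in ratio 1.25.

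Leaving out 1 cell at a time gave 24 to 25 cycling cells, 1908 to 2458 higher and 1224 to 1527 lower genes, medians of 2.24 to 2.84 for replication and 4.97 to 5.70 for mitosis, both highest without cell 89, and a spike-in ratio of 1.09 (without cell 85) to 1.40 (without cell 71).

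A direction was counted as turned only where the reported ratio was 2-fold or more either way and its sign changed. Sign changes of smaller ratios were left out. Under spike-in scaling, for example, the list median went from -0.30 to 0.04 for growth arrest genes. At 4 rule genes it went from 0.10 to -0.17 for MHC class I genes and from 0.04 to -0.33 for nuclear oxidative phosphorylation genes. Those counted as turned are given next. At 2 rule genes the log2 ratio was 3.21 for Mmp19, 2.44 for Slpi, 0.59 for mt-Co3 and 0.90 for Hist1h1c, and at 4 rule genes -0.90 for Samd9l, -0.019 for Postn, -1.44 for Irf7 and -0.49 for endothelial markers. Without cell 71 it was 0.28 for Atf3, 0.43 for Egr2, 1.68 for Aldoc and 0.027 for Ifit1, from lows of -2.31, -2.47, -3.94 and -4.72 without another cell, and for Mmp19 the range was -5.91 to 1.02 (without cell 85). Histone genes had a median of -0.22 at a minimum of 10 CPM. Erythroid markers were at -3.10 by medians over cells and -2.52 without the host-RNA cells, and macrophage markers at -0.66 without those cells and between -0.63 and 1.94 when 1 cell was left out. The cause of these changes was not tested. Apart from leaving out 1 cell at a time, 2096 gene values were obtained under alternatives. Of these 1368 stayed within the counting interval of the reported ratio, 721 moved outside it and 7 turned. Of 628 list medians the numbers were 363, 260 and 5, by the counting interval of the gene nearest the median. The spread between cells did not enter these numbers.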

Other observations

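Genes outside the cell cycle lists that had no count in a non-cycling DiD- cell included Prl2c2 and Prl2c3, placental hormone genes of the proliferin family. Prl2c2 had counts in 17 of 25 cycling cells, with a highest value of 2318 CPM, and Prl2c3 in 15, with 2290 CPM. The 2 genes are near-identical copies, so the division of reads between them is uncertain. At 4 rule genes their log2 ratios were 2.91 and 1.68 in place of 8.94 and 8.07. Itgb7, an integrin beta chain, had counts in 23 cycling cells (median 124 CPM), and at 4 rule genes its ratio was 0.29 in place of 7.71. Krt8, a keratin of luminal epithelium, was at 1303, 6227 and 2234 CPM in cells 71, 85 and 89 and 329 to 8390 CPM (median 3062) in the cycling cells, with a ratio of 0.11, and Vim, vimentin, had a ratio of -0.03.

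Medians of the lists not described above are given beside the 0.21 of all genes. Interferon-stimulated genes had a median of -0.30 with 12 of 28 above 0, and 2.24 without cell 71, which held 49.7 CPM of Ifit1, an antiviral protein, against 0 CPM in cells 85 and 89. Genes of MHC class I and peptide loading had a median of 0.10, p53 targets 0.22, glycolysis and hypoxia genes 0.07 and stress response genes -0.13. Epithelial genes were at 0.10, from only 4 of 13 listed genes with 1 CPM, and mesenchymal genes at -0.03. Cholesterol genes were at 0.68 with 16 of 24 above 0 (0.01 at 4 rule genes) and replication-dependent histones at 1.33 with 20 of 27. Polyadenylated cDNA measures such histones poorly. Matrix genes had a median of 0.21 with 19 of 34 above 0, while their summed CPM was 30646, 11231 and 12235 in cells 71, 85 and 89 and 3383 to 21923 (median 8291) in the cycling cells, 22 of which lay below all 3. Vegfa, the vascular growth factor, was at 94.2, 38.1 and 174 CPM against a median of 16.5 CPM, with 17 of 25 cycling cells below all 3. Of 9 genes that the study names as higher in DiD+ cells and that had at least 1 CPM here, 5 had a ratio above 0 (median 0.34). Of the 4 at 10 CPM or more, 0 were 2-fold higher and 2 were 2-fold lower (50%, against 14.6% of all genes). In the DiD+ split 1 of 12 had a ratio above 0 (median -1.21). Of 6 genes named as higher in DiD- cells, 6 had a ratio above 0 (median 2.15). At 10 CPM or more, 3 of 5 of them were 2-fold higher (60%, against 22.1% of all genes). Both lists were chosen by the study on these samples and are not independent.

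Markers of neutrophils (3 of 9 at 1 CPM), megakaryocytes (1 of 5), T or NK cells (1 of 7) and B or plasma cells (0 of 7) were sparse in both classes. So were those of endothelial cells (2 of 6), osteoblasts (2 of 7) and osteoclasts (2 of 6). Marrow stromal markers (4 of 6) were not sparse. Their summed CPM was 165, 163 and 206 in cells 71, 85 and 89 and 6.26 to 722 (median 261) in the cycling cells. Cxcl12 was at 106 CPM in the cycling and 114 CPM in the non-cycling class, and Vcam1 at 160 and 40.8 CPM. The source of this RNA was not tested.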
